A study of Mus musculus with 4 samples.

Results

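The genes described here are 9 genes of the cartilage programme: the transcription factor genes Sox9, Sox5 and Sox6, and Acan, Snorc, Comp, Hapln1, Col2a1 and Cytl1, which encode cartilage matrix or secreted proteins. They were chosen by name, as the probes whose RefSeq accession belongs to one of these symbols, and all 9 were found, with 10 probes among the 55681 probes of the array and 21154 named genes. The study used mouse mesenchymal stromal cells (MSCs), grown as primary cultures to passage 5 and given retroviral short hairpin RNAs, and measured total RNA on 4 one-colour arrays. The knockdown arrays, shIslr 1, 2 and 3, each carried 1 of 3 hairpins directed at separate stretches of Islr, which encodes the surface and secreted protein Meflin, and a single array, shControl, carried the control hairpin. All 4 cultures had thus been transduced. No strain, age or number of animals is given in the labels, and a shared or separate origin of the cultures is not stated, so the 3 hairpins are replicates of the knockdown and not of cells or animals.

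SOX9 is the master regulator of the chondrocyte fate. It acts with SOX5 and SOX6, which lack an activation domain of their own and help SOX9 on its enhancers, and together these factors switch on the type II collagen gene Col2a1 and the aggrecan gene Acan. Aggrecan is bound to hyaluronan with the help of the link protein encoded by Hapln1, and COMP ties collagen fibrils to other matrix proteins in cartilage and tendon. MSCs are precursors that can be led into cartilage, bone or fat in culture, and grown without such a stimulus they are not chondrocytes.

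For 5 of the 9 genes RefSeq (GRCm38.p6) gave promoter windows. The 250 bases before the start are shown for the 3 of these genes that had a probe well above background on at least 1 array, with capitals for ACAATG or ACAAAG, hexamers of the SOX recognition sequence, searched on both strands. The Sox5 window lies at chr6:143947107-143947356 (minus strand), Acan at chr7:79052976-79053225 (plus strand) and Cytl1 at chr5:37735269-37735518 (plus strand).
Sox5: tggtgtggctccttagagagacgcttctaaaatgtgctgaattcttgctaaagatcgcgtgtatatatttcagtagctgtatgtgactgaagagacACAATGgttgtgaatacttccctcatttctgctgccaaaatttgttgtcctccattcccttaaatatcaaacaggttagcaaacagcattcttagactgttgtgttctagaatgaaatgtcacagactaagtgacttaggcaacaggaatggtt
Acan: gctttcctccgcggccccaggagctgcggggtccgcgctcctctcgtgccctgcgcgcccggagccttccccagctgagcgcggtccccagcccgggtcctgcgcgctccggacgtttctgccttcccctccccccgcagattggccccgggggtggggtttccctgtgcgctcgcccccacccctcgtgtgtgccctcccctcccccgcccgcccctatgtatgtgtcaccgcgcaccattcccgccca
Cytl1: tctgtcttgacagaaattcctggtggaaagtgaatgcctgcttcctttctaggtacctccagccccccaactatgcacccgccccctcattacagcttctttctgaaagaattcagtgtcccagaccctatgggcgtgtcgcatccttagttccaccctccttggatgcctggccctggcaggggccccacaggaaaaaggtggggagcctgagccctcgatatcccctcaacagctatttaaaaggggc
The Sox5 window held 1 ACAATG at position -154 from the start, and the Acan, Cytl1 and Hapln1 windows held neither hexamer. Of the 6 Sox6 windows, 5 held at least 1. Over all 32851 windows 25.2% held at least 1, and such a match is a stretch of letters and not a measured binding site. The Acan window was 74.4% G or C, against a median of 52.4% over all windows, and the Sox5 window was 39.6%.

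By the scanner software's call, 49.4% to 53.9% of the 59305 features on an array were well above background, and none was saturated. All 12 mesenchymal stromal marker genes looked at (among them Pdgfra, Thy1, Cd44 and Col1a1) were above background on every array. Of the haematopoietic markers 5 of 9 were above background on every array, without Ptprc, and of the endothelial markers 3, 2 and 3 of 7 on shIslr 1 to 3 and 2 of 7 on shControl. Of the 5 genes listed as tendon markers, Scx, Mkx and Egr1 were above background on every array, and Tnmd and Thbs4 on none. Levels below are log2 of the processed signal minus the log2 of the array's 75th percentile signal, and differences are log2, shIslr hairpin minus shControl, as mean ± SD over the 3 hairpins (n = 3) against 1 control array. Islr itself had a signal of 11, 70.5 and 3.44 on shIslr 1 to 3, against 454 on shControl. The probe was above background only on shIslr 2 among the hairpins, where its difference was -2.66.

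As a set, the 9 genes did not move one way. Sox9 was above the control on all 3 hairpins, and Acan on 2, with a reading level with the control and not called above background on shIslr 1. Sox5 (by its bright probe) and Snorc were below the control on all 3, and Comp was above it on 1 hairpin and below it on 2. Sox6, Hapln1, Col2a1 and Cytl1 were not well above background on the control array, and of these Col2a1 and Cytl1 were above background on shIslr 3 alone. A gene was tested if shControl, or else each of the 3 shIslr arrays, read its probe well above background, which kept 5 of the 9. Limma (two-sided, Benjamini-Hochberg adjusted p under 0.05) called 1 of these 5 lower, Snorc, and 0 higher. Over all 13567 genes tested, 0.346% were called lower and 0% higher. Snorc was kept by its control reading alone, as were all 47 genes called lower, so nothing is read from its call beside that share. At an unadjusted p under 0.05 limma gave 449 lower and 206 higher. A control call alone admits a gene, whereas hairpin calls must number 3, so the filter itself favours lower genes. With a filter on all 4 arrays the unadjusted counts were 266 lower and 201 higher. Of all genes tested, 27.6% were above the control on all 3 hairpins and 24.6% below it, with 47.8% on both sides as Comp was. All 3 differences of a gene share the single control array, so a high or low reading there moves them together.

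**Figure D1:**
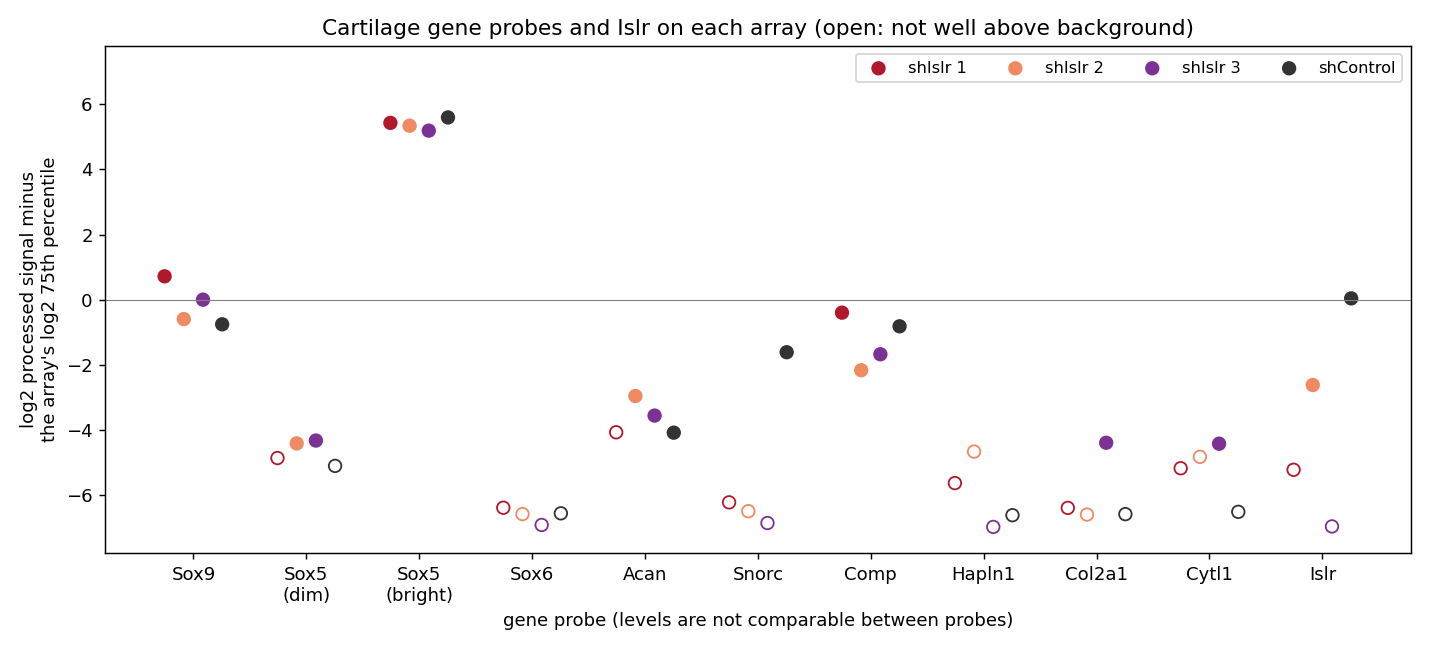
Level of each probe (log2 processed signal minus the array's log2 75th percentile) on the shIslr 1, 2 and 3 arrays and the shControl array, with open circles where the probe was not well above background. Snorc is filled on shControl alone, Sox6 and Hapln1 are open on all 4 arrays, and the bright Sox5 probe lies far above the dim one.

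Sox9, the regulator at the head of the programme, was the 1 member whose probe is printed 10 times on the array, so that its reading error could be seen. Its mean signal was 680.8, 287.2 and 432.4 on shIslr 1 to 3, against 261.1 on shControl, with all 10 spots above background on each array. All 3 hairpin arrays were thus above the control, shIslr 1 the most and shIslr 2 the least. The differences were 1.48, 0.16 and 0.76, which is 2.78-fold, 1.12-fold and 1.69-fold. The mean was 0.80 ± 0.66 (n = 3), and limma did not call it (adjusted p = 0.964). In RNA from a whole culture, more cells with Sox9 and more Sox9 RNA per cell cannot be told apart, here and for the genes below.

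The spots show how much of that spread lies within an array. The SD of log2 signal over the 10 spots was between 0.0916 and 0.101 on the 4 arrays, well below the SD of 0.66 between hairpins. On shIslr 1 and shIslr 3 all 10 spots were above the highest control spot after scaling, and on shIslr 2 5 of 10 were. The software flagged 2, 1 and 0 of these spots as outliers on shIslr 1 to 3 and 2 on shControl, and all are counted here. With flagged spots left out the mean difference was 0.81. Spots of 1 array repeat the same labelled RNA, so this is the error of reading an array and not of repeating a culture. Sox9 on shIslr 1 exceeded shIslr 2 by 1.32 and shIslr 3 by 0.72. Of all genes tested 6.67% had a wider range over the 3 hairpins than Sox9, and 6.64% had a larger mean difference in absolute size. Without shIslr 2 the mean was 1.12, and without shIslr 1 it was 0.46.

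**Figure D2:**
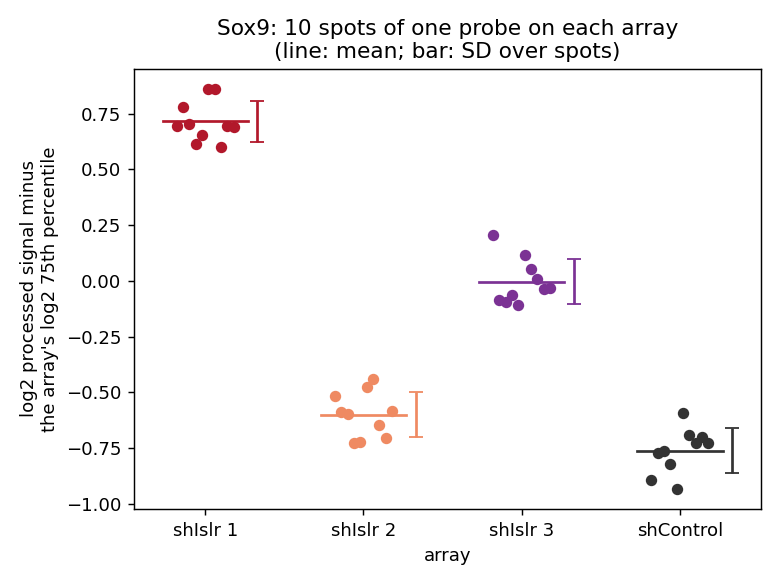
Level of each of the 10 Sox9 spots on the shIslr 1, 2 and 3 arrays and on the shControl array, on the same log2 scale, with the mean (line) and the SD over spots (bar). The shIslr 1 and shIslr 3 spots lie above all control spots, and the shIslr 2 spots overlap the control spots. Spots flagged as outliers are included.

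Sox5, a SoxD partner of SOX9, has 2 probes that carry the same RefSeq accession and disagree. The bright probe had signals of 17920, 17700 and 15880 on shIslr 1 to 3, against 21480 on shControl. It was below the control on all 3 hairpins, by -0.17, -0.26 and -0.41, with a mean of -0.28 ± 0.12 (limma adjusted p = 0.964). That is 1.21-fold lower, and 36.1% of all genes tested had a larger mean difference in absolute size. The software's error estimate for this probe was 1792, 1770 and 1588 on shIslr 1 to 3 and 2148 on shControl, so only the shIslr 3 reading differed from the control by more than the 2 errors added.

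The dim Sox5 probe had signals of 14.1, 20.3 and 21.5 on shIslr 1 to 3, against 12.8 on shControl. It was well above background on shIslr 2 and shIslr 3 only. The software's error was 4.4, 4.32 and 3.72 on shIslr 1 to 3 and 4.05 on shControl. Only the shIslr 3 reading thus differed from the control by more than the 2 errors added. Against the lowest signal called above background on the control array, it was at least 1.07-fold higher on shIslr 2 and at least 1.14-fold higher on shIslr 3. Such bounds hold for the lowest called signal on an array, not for a probe's own limit, and can be too high. The bright probe stands for Sox5 in the test because it has the higher mean signal. The 2 probes gave opposite directions, beyond the added errors on shIslr 3 only, so no direction is given for the gene. Which probe follows the Sox5 transcript was not tested.

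Sox6, the other SoxD gene, was not well above background on any array. Its probe had signals of 4.9, 4.5 and 3.55 on shIslr 1 to 3, against 4.64 on shControl. The error estimates were 4.92, 4.51 and 3.56 on shIslr 1 to 3 and 4.66 on shControl. Signals that low are as large as their own error and have no order. With Sox6 below the background call, Sox9 alone of the Sox trio had a probe above background on every array and no second probe that contradicts it.

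Acan encodes aggrecan, the large chondroitin sulfate proteoglycan that gives cartilage its water content. Its signal was 24.5, 55.7 and 36.5 on shIslr 1 to 3, against 25.9 on shControl. The reading on shIslr 1 was not called well above background, although it lay above the lowest called signal there (20.8), and it was level with the control. The highest was shIslr 2. The differences were 0.01, 1.13 and 0.52, or 2.18-fold on shIslr 2 and 1.44-fold on shIslr 3. The mean was 0.55 ± 0.56 (limma adjusted p = 0.964), no larger than the spread between hairpins. The software's error was 5.55, 7.19 and 5.04 on shIslr 1 to 3 and 5.33 on shControl, so that shIslr 2 exceeded the control by more than both errors added, and shIslr 3 by barely more. After normexp correction (offset 50) with quantile scaling the mean was 0.19, and without shIslr 2 it was 0.27.

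Acan is a classical target of SOX9, and the order of the 2 genes over the hairpins differed. Sox9 was highest on shIslr 1, where Acan was at the control's level, and Acan was highest on shIslr 2, where Sox9 was nearest to the control. With 3 hairpins no correlation between them is given.

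Snorc encodes a small transmembrane chondroitin sulfate proteoglycan found in cartilage. Its signal was 5.5, 4.78 and 3.7 on shIslr 1 to 3, against 143.9 on shControl. All 3 hairpin readings were near the software's error estimates of 5.3, 4.8 and 3.72, whereas the control reading had an error of 15.2. The control array thus stood apart from all 3 hairpins, and the hairpins could not be ordered among themselves. Against the lowest called signals Snorc was at least 6.49-fold lower on shIslr 1, at least 7.43-fold lower on shIslr 2 and at least 9.4-fold lower on shIslr 3. For the mean of the 3 the bound was at least 7.68-fold lower, which leaves at most 13% of the control's signal. These bounds rest on the lowest called signal of each array and not on this probe's own limit, so they can be too high.

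Before background subtraction the same contrast was smaller. The median pixel brightness of the Snorc spot was 45, 39 and 43 on shIslr 1 to 3, against 143 on shControl, over a local background of 23, 24 and 23 on the hairpin arrays and 22 on the control array. The 3 hairpin spots were close to those of Sox6 (39, 34 and 38), which was below the background call. Limma gave Snorc a mean difference of -4.92 ± 0.32 (adjusted p = 0.032), where the spread is that of signals below background and the mean is no measured fold. The call did not hold after that normexp correction with quantile scaling (-1.28, adjusted p = 0.548), or without shIslr 1, 2 or 3 (-5.07 to -4.75, adjusted p between 0.0741 and 0.152). It was also lost, at an unchanged difference, with no filter (adjusted p = 0.104) and with a filter on at least 1 array (0.115). It rests on 1 spot of 1 control array, with no second probe.

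Snorc entered the test through the control array alone, so a lower reading on the hairpins was built into its selection. There were 226 such genes, above background on shControl and on no shIslr array, and 225 of them were below the control on all 3 hairpins. They included all 47 genes that limma called lower, which is 20.8% of the 226. The control signals of the 226 had a median of 33.2 and a highest value of 253.3, and 7 of them, Snorc included, had a control signal at or above that of Snorc. Of those 7, 6 were called. A further 73 genes were above background on all 3 hairpins and not on the control. Snorc was therefore one of several genes with this pattern. Its selection favoured a lower reading, so nothing is read from its call beside the 20.8% or the 0.346% of all genes.

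**Figure D3:**
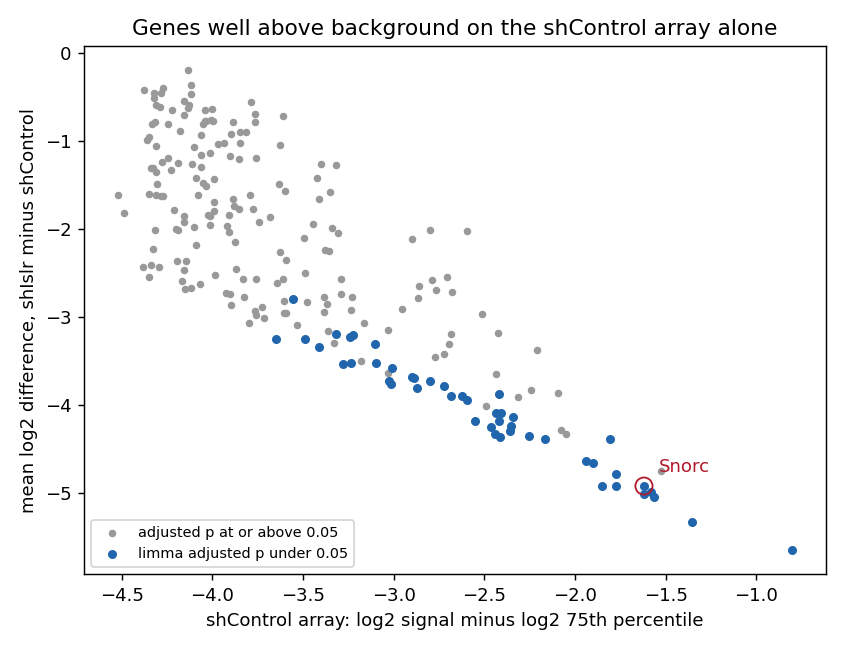
The 226 genes well above background on the shControl array alone, with the mean log2 difference (shIslr minus shControl, signals below background included as they stand) against the level on shControl. The genes differ in how far below the control their hairpin signals lie, more so at low control levels, and Snorc (circled) lies among the brightest of the genes that limma called.

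Comp encodes cartilage oligomeric matrix protein, a pentameric member of the thrombospondin family that is also abundant in tendon. Its signal was 313.7, 96.6 and 135.1 on shIslr 1 to 3, against 250.2 on shControl, and all 4 were well above background. The control lay inside the range of the hairpins. The differences were 0.42, -1.35 and -0.86: 1.34-fold higher on shIslr 1, 2.55-fold lower on shIslr 2 and 1.81-fold lower on shIslr 3. The software's error was 31.8, 10.7 and 14 on shIslr 1 to 3 and 25.5 on shControl, so each hairpin differed from the control by more than the 2 errors added, in opposite directions. The mean of -0.60 ± 0.91 was smaller than its spread (limma adjusted p = 0.97).

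The hairpins disagreed on Comp more than on most genes, since shIslr 1 exceeded shIslr 2 by 1.77 and only 3.35% of all genes tested had a wider range. Without shIslr 1 the mean was -1.10, and without shIslr 2 it was -0.22. Comp and Sox9 were both highest on shIslr 1 and lowest among the hairpins on shIslr 2. Several other cartilage genes, such as Runx2 and Bmpr1b, had this order too, and a link was not tested. Tendon cells also make COMP. Of the 5 genes listed as tendon markers, Scx was at -0.60, 0.37 and 0.45 on shIslr 1 to 3. Mkx was at 0.83, -0.85 and 1.21, and Egr1 at -0.29, -0.66 and -0.52. Tnmd and Thbs4 were not above background on any array. The 3 measured genes thus ran in different ways over the hairpins. How particular each is to tendon cells, and the part of such cells in the Comp readings, was not tested.

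The remaining 3 genes were near the floor. Hapln1, the link protein gene, had signals of 8.29, 17 and 3.4 on shIslr 1 to 3, against 4.46 on shControl, and was not well above background on any array. Col2a1, whose product is the main collagen of cartilage, had signals of 4.89, 4.45 and 20.5 on shIslr 1 to 3, against 4.56 on shControl. Only shIslr 3 was called, where it was at least 1.09-fold higher than the lowest called level on the control array. Cytl1, which encodes a secreted cytokine-like protein made by chondrocytes, had signals of 11.4, 15.2 and 20.1 on shIslr 1 to 3, against 4.79 on shControl. All 3 hairpin readings exceeded the control, but shIslr 3 alone was called, at least 1.06-fold higher. Both called readings had a software error (3.98 for Col2a1 and 4.08 for Cytl1) larger than their margin over the lowest called level. No fold is given for the uncalled readings. Col2a1 and Hapln1, defining genes of a chondrocyte, were thus below the background call on shControl and on shIslr 1 and 2.

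A wider list of 54 other cartilage genes, with 53 on the array, gave the setting. Of these, 37 were tested. Limma called 0 lower and 0 higher, and none was at least 2-fold away in one direction on all 3 hairpins, a rule met by 1.69% (lower) and 0.236% (higher) of all genes tested. On all 3 hairpins 12 of the 37 (32.4%) were below the control and 7 (18.9%) above it, with 18 on both sides. Among all genes the shares were 24.6% below and 27.6% above. The filter admits a gene by its control call alone, which favours lower genes in both sets. Chad, Pthlh and Cilp, each below the control on all 3 hairpins, were kept by that call and lacked a call on some hairpins. No shift of the list is therefore read from these shares. The median of the mean differences was 0.02 for the list and 0.01 for all genes. Another 12 listed genes, among them the cartilage matrix genes Col9a3, Matn1, Matn3 and Epyc and the SoxE relative Sox8, were above background on no array. The other 4, Col9a1, Col10a1, Cnmd and Prg4, were above background on 1 or 2 hairpin arrays and not on the control.

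The largest mean differences among listed genes measured on all 4 arrays came from genes of several roles. Matn2, a matrilin gene expressed in many connective tissues, had signals of 2138, 1301 and 1007 on shIslr 1 to 3, against 2965 on shControl. It was below the control on all 3 hairpins, at -1.02 ± 0.59 (limma adjusted p = 0.964). Matn4, another matrilin gene, was at 0.61 ± 0.37 by its only probe above background. The 2 matrilins thus lay on opposite sides of the control.

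Prkg2, the gene of a cGMP-dependent kinase known to restrain SOX9 in growth plate chondrocytes, was above the control on all 3 hairpins, at 1.44, 0.34 and 0.45. Its mean was 0.75 ± 0.61 (limma adjusted p = 0.964), and like Sox9 it was highest on shIslr 1 and lowest among the hairpins on shIslr 2. Other listed genes, among them Col9a2, Pth1r, Runx2, Bmpr1b, Mia and Foxc1, had the same order, and a link to Sox9 was not tested. Arid5a, a relative of the SOX9 co-regulator gene Arid5b, was at 0.73 ± 0.23 and above the control on all 3 hairpins (limma adjusted p = 0.964), whereas Arid5b was at 0.02 ± 0.45. Fmod, the fibromodulin gene, was at 0.18, 0.03 and 1.67, high on shIslr 3 alone. The lysyl oxidase gene Loxl4 was at -0.33, 0.90 and 1.61, and its second probe gave -0.17, 1.13 and 1.24.

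Further listed genes given here were chosen after their values were seen. Col11a1, whose product joins type II collagen in cartilage fibrils, was at 0.12 ± 0.16 and Col11a2 at -0.34 ± 0.10, while the collagen gene Col27a1 was at -0.20, 0.48 and -1.49, low on shIslr 3. Chst11, the chondroitin sulfotransferase gene, was at 0.08 ± 0.05, and the xylosyltransferase gene Xylt1, which starts glycosaminoglycan chains, at -0.32 ± 0.16. The sulfotransferase gene Chst3 was at -0.09, 1.41 and -0.18, high on shIslr 2 alone, and Papss2, which makes the sulfate donor, at -0.63, 0.38 and 0.41. Gdf5, a joint-forming BMP ligand gene, was at -0.33 ± 0.05 and the hypertrophy regulator gene Runx2 at 0.28 ± 0.28. The fibroblast growth factor receptor gene Fgfr3 was at 0.56 ± 0.32 and above the control on all 3 hairpins. None of these genes passed limma's test.

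**Figure D4:**
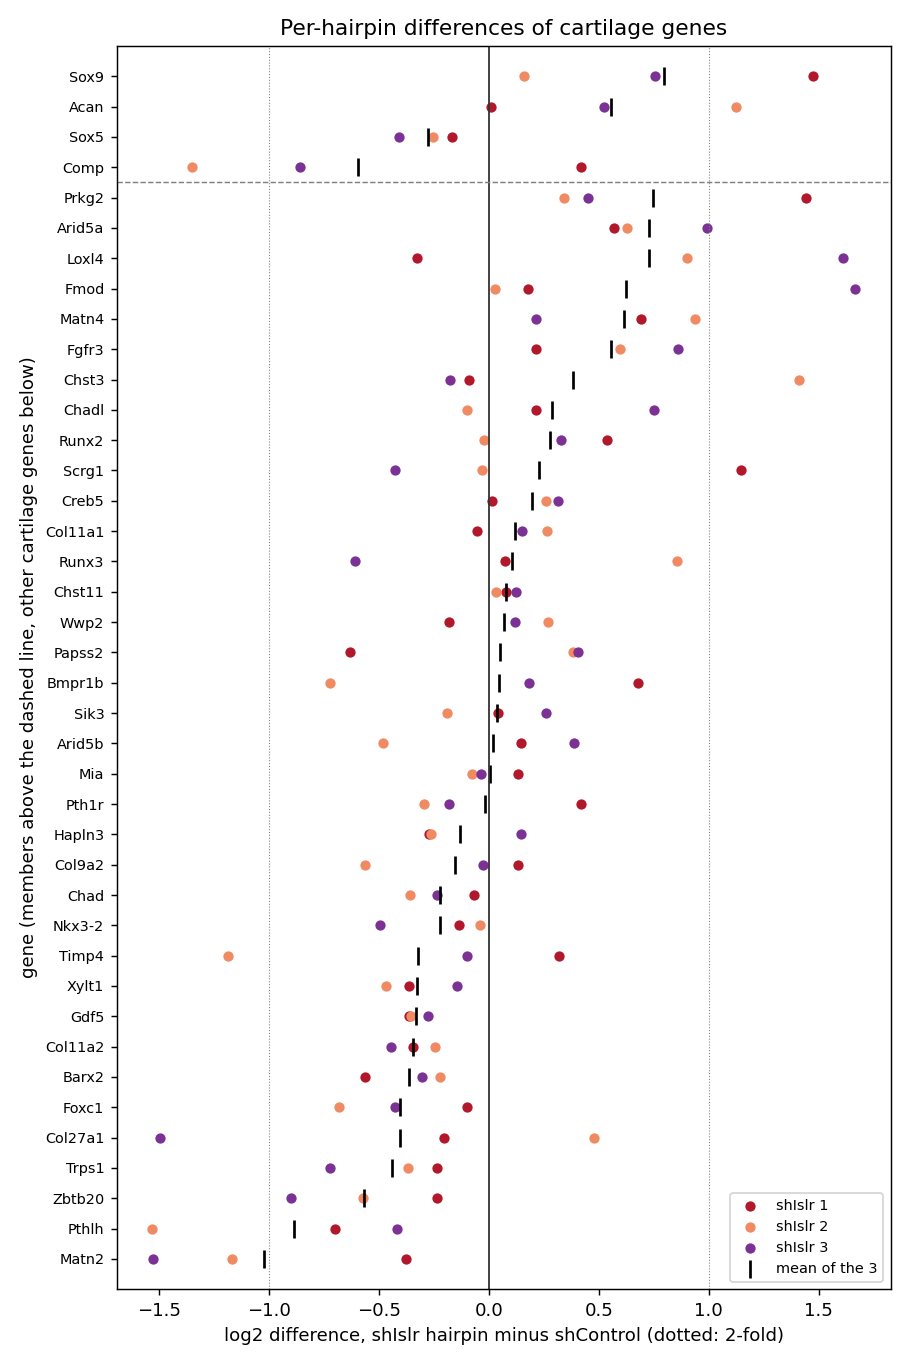
Log2 differences (shIslr hairpin minus shControl) of Sox9, Acan, Sox5 (bright probe) and Comp above the dashed line and of 36 other cartilage genes below it, one point per hairpin and a black tick for the mean. Snorc and Cilp, with most or all hairpin readings below background and larger differences, are left out, a few readings of Acan, Chad, Pthlh, Scrg1 and Timp4 are also below background, and no gene shown has all 3 points beyond the same 2-fold line.

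The genes nearest to a member in their 3 differences were taken from 12715 other genes above background on all 4 arrays, by Euclidean distance in log2 units. For Sox9 they were Ccl9 (distance 0.0925), Ecrg4 (0.15) and Asgr1 (0.29), and Ccl9 had differences of 1.51, 0.12 and 0.83. For Comp they were Egr2 (0.272), 1600027J07Rik (0.277) and Rgs4 (0.33). For the bright Sox5 probe they were Oga, Aldh8a1 and Dnajc18, all within 0.0442. The distances rest on 3 values per gene that share 1 control array.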

How the data were processed

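Agilent Feature Extraction 11.5.1.1 read the one-colour arrays (protocol GE1_1105_Oct12, mm9 design), per the file headers. The deposited processed signal intensity of a spot is linear, background-subtracted and detrended. All 4 arrays lay on 1 slide. The deposited 0 or 1 flags gave the background calls. Spots of a probe were averaged as log2, and the log2 75th percentile of each array was subtracted. Accessions matched to RefSeq symbols named 28026 of 55681 probes, and for each of 13567 genes the brightest kept probe was tested with limma 3.58.1 in R 4.3.3 (two-sided), 3 hairpins against 1 control. The lone control has no spread of its own and is assumed to vary like the hairpins, and p-values measure only the spread between these arrays, whose number limits the precision. Named genes were all 9 members, Islr, the 6 listed cartilage genes farthest from the control among those above background on all 4 arrays, any at least 2-fold apart on all 3 hairpins, and the 3 nearest genes per member. Other genes named were chosen after their values were seen. The members and lists were chosen with earlier results of these data known. Alternatives tried were quantile, median and normexp scaling, the series table, other filters, the mean over probes, each hairpin left out and, added after the data were seen, outlier flags removed. Figures were drawn with matplotlib 3.10.9.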

Additional observations from a re-analysis of the deposited data

How the results depend on the processing

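Sox9, Sox5 (bright probe), Acan, Comp and Islr kept their direction and stayed above the threshold under every alternative run that could give them a value (12 for Sox9, Sox5 and Comp, 11 for Acan and Islr). Sox9 ranged from 0.46 to 1.12, Sox5 from -0.35 to -0.21, Acan from 0.19 to 0.83 and Comp from -1.10 to -0.22. Islr ranged from -6.14 to -2.61, which are no measured differences, since its signals on shIslr 1 and 3 were below background. Snorc stayed below the control in all 11 (-5.07 to -1.28, likewise not measured differences) and was called in 5 of 11, with adjusted p from 0.00935 to 0.548. The count of genes that limma called lower was 75 with quantile normalization and 0 with normexp, with no filter, with either other filter (all 4 arrays or at least 1) and without any 1 hairpin (lowest and highest 0), where unadjusted p under 0.05 gave between 266 and 557 lower. The filter on all 4 arrays removes by its construction every probe not called on all 4. That takes out all 47 genes called lower, Snorc included. Of the 229 at least 2-fold lower it takes out the 156 called on the control alone and others not called on every hairpin array. The filters that keep more genes test more. The cause of the other changes was not tested. Genes called higher were 0 throughout, with 149 to 320 at an unadjusted p under 0.05. Genes at least 2-fold lower on all hairpins used were 229, 45 with normexp, 325 with no filter and 40 with the filter on all 4 arrays. They were 227 with the filter on at least 1 array and 266 to 351 with 1 hairpin left out. Genes at least 2-fold higher were 32, 5 with normexp, 144 with no filter, 12 with the filter on all 4 arrays, 88 with that on at least 1 array and 43 to 86 with 1 hairpin left out. No scaling moved the median of all genes by over 0.1. No paired analysis was possible because the control group has 1 array and shares fewer than 2 replicate numbers with the hairpins. Signals near 20 or below limit what can be said of Sox6, Hapln1, Col2a1 and Cytl1.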

Other observations

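Other cartilage and joint genes, chosen after their values were seen, had readings that set single arrays apart. Prg4, the gene of the joint lubricant lubricin, had signals of 29.7, 23.8 and 433.2 on shIslr 1 to 3, against 17 on shControl, by its brighter probe. It was called above background on shIslr 1 and shIslr 3 and was at least 22.9-fold higher on shIslr 3. The other Prg4 probe, at 3.83 to 5.48 on all 4 arrays, was not above background on any. Cilp, the gene of an intermediate layer protein of cartilage, had signals of 5.17, 35 and 3.72 on shIslr 1 to 3, against 64 on shControl. It was at least 2.88-fold lower on shIslr 1 and at least 4.17-fold lower on shIslr 3, where it was below background. Col10a1, the collagen gene of hypertrophic chondrocytes, had signals of 5.06, 17.3 and 37.5 on shIslr 1 to 3, against 19 on shControl, and was called above background on shIslr 3 alone. Bounds are against the lowest signal called above background on the array and not a probe's own limit. None of the 3 differences was shown by a test.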
